A study of Mus musculus with 6 samples.

Results

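The 45 genes described here encode the machinery that condenses chromosomes, builds the spindle, separates the chromatids and divides the cell. They were chosen by gene symbol for this role, with no threshold on their measured values but with earlier results of these data known, from 53458 mouse genes with at least 1 deposited transcript, and fall into 8 groups by role. RNA sequencing was done on AML blasts from the bone marrow of 6 mice, labelled C57BL/6, 3 of them *Cebpa*-/p30 *Tet2*+/+ (mice 19, 23 and 24) and 3 *Cebpa*-/p30 *Tet2*-/- (mice 5, 7 and 8). Blasts of both genotypes therefore carried 1 lost *Cebpa* allele and 1 allele that makes only the shorter C/EBPα protein, p30, and the comparison asked what differed when *Tet2*, which encodes a DNA demethylase, was lost as well. The floxed alleles were recombined with *Mx1-Cre*, which responds to poly(I:C) and is active across blood cells and in some other tissues, after marrow of individual donors had been transplanted into irradiated congenic female recipients. Marrow was taken from moribund recipients and sorted for live donor cells without CD3, B220 and Ter119, so that each library is 1 leukaemia and mixes all the myeloid stages that passed the sort. The labels give neither an age nor a batch for any mouse.

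Cells commit to mitosis when cyclin A and cyclin B activate CDK1, which is held back until CDC25 phosphatases remove inhibitory phosphates. Polo-like kinase 1 and the Aurora kinases then guide centrosome separation, spindle assembly and chromosome attachment, condensins and topoisomerase II compact and untangle the DNA, and anillin, ECT2 and RACGAP1 organise the contractile ring. Most of these genes are transcribed late in the cell cycle and are near silent in resting cells, so their summed mRNA in a population is widely used as a readout of cycling. In myeloid marrow, blasts and early granulocyte precursors divide, whereas mature neutrophils do not. In whole sorted populations such as these, fewer cells in mitosis and less RNA per cell cannot be told apart.

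The libraries held between 13036600 and 32855300 estimated counts. Levels are given as CPM, the estimated counts relative to library size after TMM normalisation, a scaling that takes differences in composition between libraries into account. The whole-gene *Tet2* level did not check the labels, since it was 83.8 ± 12.95 CPM (SD, n = 3) in *Tet2*+/+ and 95.8 ± 15.99 CPM (SD, n = 3) in *Tet2*-/- blasts and also counts exons outside the floxed part. The label of myeloid blasts was matched by *Mpo*, the granule peroxidase of early myeloid cells, at 2662 to 4527 CPM and by *Lyz2*, lysozyme, at 3368 to 10612 CPM. *Mpo* was lower in every *Tet2*-/- mouse, with the lowest log2 fold change of the 14 blast markers, -0.49 (standard error 0.25, edgeR adjusted p = 0.664), and 12 of the 14 were above 0. Of the sorted-out cells, the T cell marker *Cd3e* stood at 1.14 to 4.24 CPM, and *Hbb-bt*, a globin gene, reached 83.0 CPM in mouse 19 and was at 0.77 to 9.71 CPM in the other mice.

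Late cell cycle promoters often hold a cell cycle genes homology region (CHR, TTTGAA or TTCGAA), read by the MuvB complexes that repress these genes in resting cells and activate them with B-MYB and FOXM1, and CCAAT boxes, read by NF-Y. RefSeq promoters of GRCm38.p6, from 250 bases before to 50 after the start, were listed for 36 of the 45 genes, at 38 starts. Searched on both strands, a CHR stood in 31 of the 38 promoters, 81.6%, against 19.2% of all 32851 promoters of the same length. A CCAAT box stood in 30, 78.9%, against 37.4% of all, and both motifs stood together in 27, 71.1%, against 7.52% of all. At least 2 CCAAT boxes were found in 19 of the 38 promoters, against 11.7% of all. These are counts of letters and not of bound sites. The 6 promoters below belong to the most abundant of these genes that hold both motifs, and are shown from 200 bases before to 30 after the start, 5′ to 3′ on the strand of the gene. Capitals mark the CHR and CCAAT letters, also where they read on the opposite strand (TTCAAA and ATTGG).
*Mki67* (chr7:135716350-135716579, minus strand): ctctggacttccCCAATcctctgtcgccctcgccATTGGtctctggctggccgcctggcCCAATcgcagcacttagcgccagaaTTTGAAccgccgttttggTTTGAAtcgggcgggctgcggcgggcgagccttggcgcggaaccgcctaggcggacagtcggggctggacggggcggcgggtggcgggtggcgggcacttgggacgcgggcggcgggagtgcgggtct
*Top2a* (chr11:99024160-99024389, minus strand): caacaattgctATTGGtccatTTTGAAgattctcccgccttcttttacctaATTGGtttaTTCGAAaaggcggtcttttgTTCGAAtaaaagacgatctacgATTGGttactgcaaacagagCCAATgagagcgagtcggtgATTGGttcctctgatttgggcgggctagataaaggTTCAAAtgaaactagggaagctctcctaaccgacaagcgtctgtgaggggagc
*Ncapd2* (chr6:125191557-125191786, minus strand): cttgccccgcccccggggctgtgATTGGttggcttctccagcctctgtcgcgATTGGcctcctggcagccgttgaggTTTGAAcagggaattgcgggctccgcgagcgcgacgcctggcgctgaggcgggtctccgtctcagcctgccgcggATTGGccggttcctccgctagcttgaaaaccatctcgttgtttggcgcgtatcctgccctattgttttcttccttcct
*Racgap1* (chr15:99651627-99651856, minus strand): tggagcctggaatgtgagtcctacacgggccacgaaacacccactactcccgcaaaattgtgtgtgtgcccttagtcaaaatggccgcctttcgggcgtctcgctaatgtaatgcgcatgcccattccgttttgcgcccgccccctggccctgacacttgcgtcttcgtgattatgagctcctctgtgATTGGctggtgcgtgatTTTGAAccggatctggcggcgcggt
*Kif11* (chr19:37376182-37376411, plus strand): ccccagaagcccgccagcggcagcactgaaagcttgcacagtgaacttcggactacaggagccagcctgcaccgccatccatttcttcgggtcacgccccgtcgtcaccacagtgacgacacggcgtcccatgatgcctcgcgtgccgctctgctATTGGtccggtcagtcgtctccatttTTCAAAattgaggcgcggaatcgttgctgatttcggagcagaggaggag
*Smc2* (chr4:52439021-52439250, plus strand): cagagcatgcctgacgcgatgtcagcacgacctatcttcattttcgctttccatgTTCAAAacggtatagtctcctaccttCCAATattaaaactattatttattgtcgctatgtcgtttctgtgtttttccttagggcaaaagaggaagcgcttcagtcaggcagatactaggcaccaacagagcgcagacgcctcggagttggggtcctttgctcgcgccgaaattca

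The *Mki67* promoter held 3 CCAAT boxes starting at -188, -166 and -141 and 2 CHRs at -116 and -98, all upstream of the start. *Top2a* held the most motifs of the 6 promoters, with 6 CCAAT boxes, of which the one at -227 lies outside the stretch shown, and 4 CHRs from -179 to -23. In *Racgap1* and *Kif11* a single inverted CCAAT box, at -12 and -45, was followed downstream by a single CHR, at 6 and -19. *Ncapd2* had its CHR at -123, between inverted CCAAT boxes at -148 and -48, and *Smc2* had a CCAAT box at -119 downstream of an inverted CHR at -145, with another CHR at 27 that runs past the stretch shown.

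All 45 genes passed the low-count filter, and all 45 had a higher mean level in *Tet2*-/- than in *Tet2*+/+ blasts. The ratio of the means ran from 1.10 to 1.75, with a median of 1.41. Across the 22170 genes tested, 50.1% had a log2 fold change above 0, and the median was 0.00, against 0.50 for the 45 genes. The difference did not pass the test for any single gene. With edgeR's quasi-likelihood test and Benjamini-Hochberg adjustment over all genes tested, 0 of the 45 had an adjusted p under 0.05, the lowest being 0.499, where 0.00% of all genes tested were called higher and 0.0451% lower. With DESeq2, 0 of the 45 passed as well, against 1.74% of all genes in either direction. At an unadjusted edgeR p under 0.05, 12 of the 45 were higher, against 3.0% of all genes tested, and 0 were lower, against 5.12%. In 14 genes every *Tet2*-/- mouse stood above every *Tet2*+/+ mouse, against 6.41% of all genes tested, and in 0 genes the order was the opposite, against 7.94%. This count was 33 without mouse 19 and 33 without mouse 8, each against 12.7% of all genes, and 14 without mouse 7, against 15.2%. The 45 genes share the same 6 mice and move together within a mouse, so they are not 45 separate observations of the genotype.

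**Figure D1:**
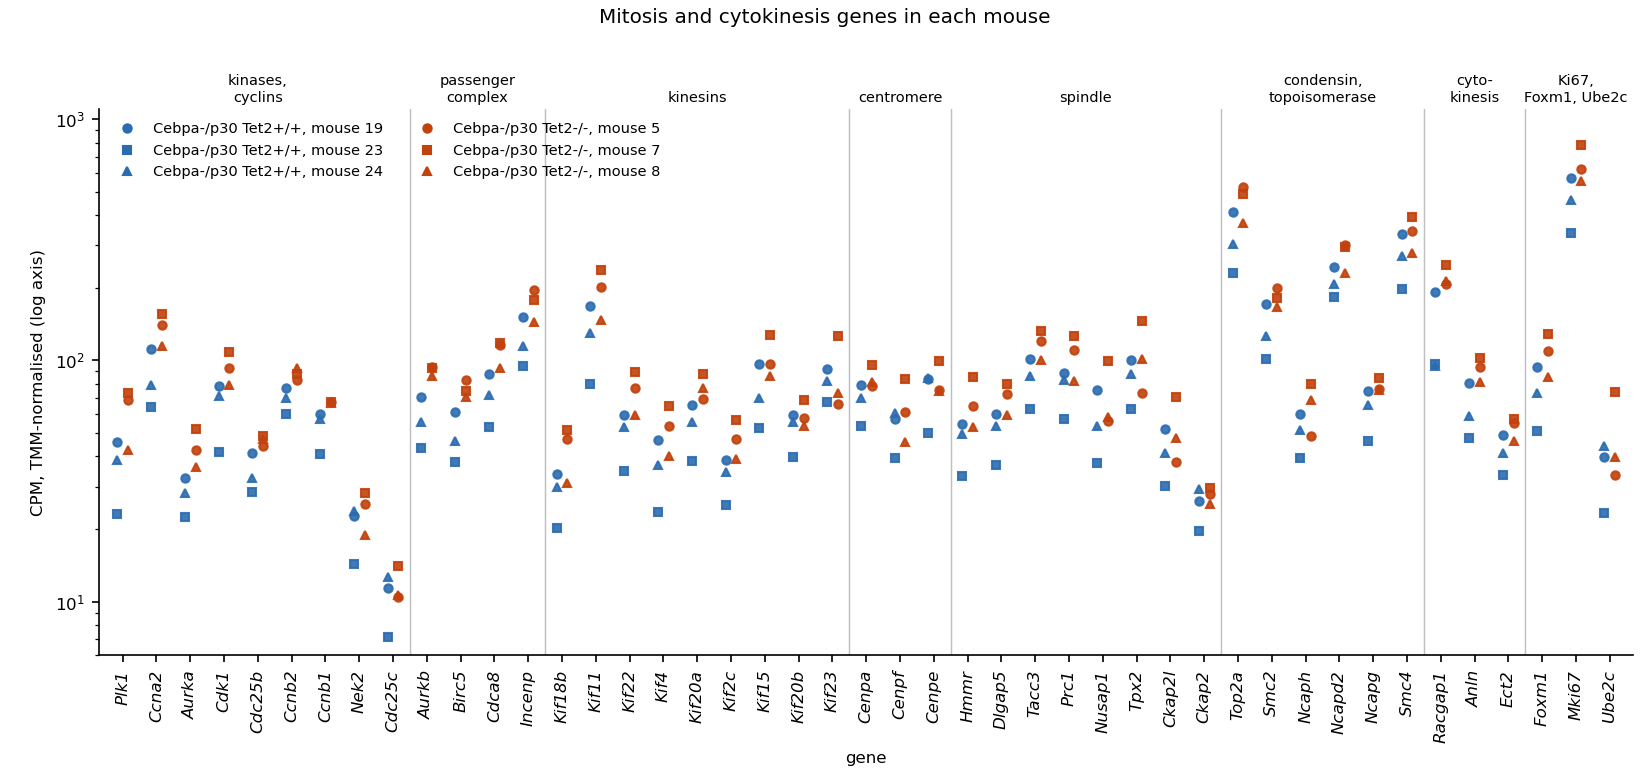
Level of each of the 45 genes in CPM (log axis) in each of the 6 mice, by role group and, within a group, by falling log2 fold change. Squares are mouse 23 (blue), the lowest in 43 of the 45 genes, and mouse 7 (orange), the highest in 37.

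*Mki67*, which encodes the proliferation marker Ki67, was the most abundant of the genes by CPM. In *Tet2*+/+ mice 19, 23 and 24 it stood at 569, 336 and 461 CPM, and in *Tet2*-/- mice 5, 7 and 8 at 619, 782 and 557 CPM. Values of the 6 mice are given in this order throughout. Only mouse 8 stood below a *Tet2*+/+ mouse, and the log2 fold change was 0.52 (standard error 0.26, edgeR adjusted p = 0.658). *Foxm1*, the transcription factor that activates many of these genes, had 93.9, 51.0 and 73.4 CPM against 110, 128 and 85.7 CPM, and differed by 0.57 on the log2 scale (standard error 0.26). *Ube2c*, the ubiquitin-conjugating enzyme with which the anaphase-promoting complex marks cyclin B for destruction, had 40.0, 23.3 and 44.3 CPM against 33.7, 73.9 and 39.7 CPM. For *Ube2c* the excess in *Tet2*-/- blasts rested on mouse 7, with mice 5 and 8 below 2 of the *Tet2*+/+ mice, and the log2 fold change of 0.45 had the largest standard error of the 45 genes, 0.37.

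Among the 9 kinases, phosphatases and cyclins of mitotic entry, 6 did not overlap between the genotypes, with 6.41% of all genes tested as the background. They were *Cdk1*, *Ccna2*, *Ccnb1*, *Ccnb2*, *Cdc25b* and *Aurka*. The median log2 fold change of the 9 was 0.45. *Cdk1*, the kinase that drives entry into mitosis, had 78.4, 41.9 and 71.3 CPM against 93.0, 108 and 79.0 CPM (log2 fold change 0.55, standard error 0.26), so that its lowest *Tet2*-/- value lay only just above its highest *Tet2*+/+ value. *Ccna2*, cyclin A2, differed by a log2 fold change of 0.68 (standard error 0.24), and *Ccnb1* and *Ccnb2*, the B-type cyclins, by 0.35 each (standard errors 0.18 and 0.16). *Ccnb1* was nearly the same in the 3 *Tet2*-/- mice, 67.0 ± 0.26 CPM (SD, n = 3), and more spread in *Tet2*+/+ mice, 52.7 ± 10.2 CPM (SD, n = 3). *Aurka*, the Aurora kinase of centrosomes and spindle poles, differed by 0.65 (standard error 0.22), and *Cdc25b*, which activates CDK1, by 0.45 (standard error 0.19).

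The highest log2 fold change of the group, 0.78 (standard error 0.31, edgeR adjusted p = 0.604), was that of *Plk1*, polo-like kinase 1. It had 45.8, 23.2 and 38.6 CPM in *Tet2*+/+ and 68.9, 73.4 and 42.7 CPM in *Tet2*-/- blasts, with mouse 8 between *Tet2*+/+ mice 24 and 19. The lowest was that of *Cdc25c*, another phosphatase of CDK1, with 11.4, 7.12 and 12.7 CPM against 10.5, 14.1 and 10.7 CPM and a log2 difference of 0.18 (standard error 0.29). *Cdc25c* was the least abundant of the 45 genes, and 2 of its 3 *Tet2*-/- values lay below those of *Tet2*+/+ mice 19 and 24. *Nek2*, a kinase of centrosome separation, had a log2 fold change of 0.26 (standard error 0.27), and its genotypes overlapped.

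The chromosomal passenger complex, which corrects wrong attachments of chromosomes to the spindle and later acts at the midzone, had the highest median log2 fold change of the 8 groups, 0.63. Its kinase *Aurkb* had 70.2, 43.3 and 55.6 CPM in *Tet2*+/+ and 94.1, 92.8 and 86.1 CPM in *Tet2*-/- blasts. The gap between the highest *Tet2*+/+ and the lowest *Tet2*-/- mouse was wider than the spread among the *Tet2*-/- mice but narrower than that among the *Tet2*+/+ mice. The log2 fold change was 0.69 (standard error 0.20). This was the lowest unadjusted edgeR p of the 45 genes, 0.0112, with an adjusted p of 0.499, and the exact two-sided permutation test gave p = 0.1, the smallest that 3 against 3 mice allow. *Birc5*, survivin, and *Cdca8*, borealin, which target the complex to the centromere, did not overlap either, with log2 fold changes of 0.65 (standard error 0.21) and 0.62 (standard error 0.22). That makes 3 of the 4 genes without overlap, against 6.41% of all genes tested. *Incenp*, the scaffold of the complex, had 151, 94.98 and 115 CPM against 195, 179 and 144 CPM, with mouse 8 below mouse 19 and a log2 difference of 0.52 (standard error 0.22).

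Of the 9 kinesins, motors that move along or depolymerise microtubules, 7 had log2 fold changes between 0.50 and 0.63, and 2 did not overlap, against 6.41% of all genes, *Kif20a*, a midzone kinesin (0.56, standard error 0.23), and *Kif2c*, a microtubule depolymerase (0.55, standard error 0.23). *Kif18b*, which trims astral microtubules, was the highest at 0.63 (standard error 0.28), with 33.9, 20.1 and 29.9 CPM against 47.4, 51.6 and 31.1 CPM. *Kif11*, the motor that pushes the spindle poles apart, was next at 0.63 (standard error 0.31), and *Kif22*, *Kif4* and *Kif15*, which act on chromosome arms and spindle fibres, stood at 0.61, 0.56 and 0.50. *Kif20b* and *Kif23* stood apart from these, at 0.22 (standard error 0.20) and 0.14 (standard error 0.28). *Kif23*, the motor of the centralspindlin complex at the midzone, had 92.2, 67.0 and 82.2 CPM in *Tet2*+/+ and 66.1, 127 and 73.4 CPM in *Tet2*-/- blasts, so that mouse 5 was the lowest of all 6 mice, mouse 8 was below mice 19 and 24, and the excess came from mouse 7. *Racgap1* encodes the partner of KIF23 in centralspindlin and had the highest log2 fold change of the 45 genes, whereas *Kif23* had the lowest.

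Cytokinesis was represented by *Racgap1*, *Anln* and *Ect2*. *Racgap1* had 192, 96.6 and 94.7 CPM in *Tet2*+/+ and 207, 249 and 214 CPM in *Tet2*-/- blasts, which differ by 0.80 on the log2 scale (standard error 0.30, edgeR adjusted p = 0.599). Mouse 19 was close to the *Tet2*-/- mice, and mice 23 and 24 stood far below the other 4. *Anln*, anillin, which links actin, myosin and septins in the contractile ring, did not overlap either (0.57, standard error 0.22). With *Racgap1* this makes 2 of the 3 genes without overlap, against 6.41% of all genes tested. *Ect2*, the exchange factor that activates RhoA at the cell equator, was the lowest of the 3, with 49.0, 33.6 and 41.5 CPM against 55.1, 57.0 and 46.2 CPM (0.35, standard error 0.19).

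The 3 centromere genes and the 8 spindle assembly genes all overlapped between the genotypes. The centromere group had the lowest median log2 fold change of the 8 groups, 0.28. *Cenpa*, the histone H3 variant that marks centromeres, had 79.4, 53.3 and 69.9 CPM against 78.4, 96.1 and 81.2 CPM (0.34, standard error 0.20), and *Cenpe*, a kinesin of the kinetochore, had 83.7, 50.2 and 84.6 CPM against 75.6, 99.7 and 74.8 CPM (0.19, standard error 0.25). In both genes mouse 23 stood alone at the low end and mouse 7 at the high end, with the other 4 mice close together. *Cenpf*, a protein of the outer kinetochore, had a log2 fold change of 0.28 (standard error 0.27).

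Among the spindle genes, *Hmmr*, which focuses spindle poles, was the highest, with 54.4, 33.1 and 49.5 CPM against 64.9, 85.5 and 53.0 CPM (0.57, standard error 0.26). *Dlgap5*, *Tacc3* and *Prc1*, which stabilise kinetochore fibres or bundle midzone microtubules, had log2 fold changes of 0.50, 0.50 and 0.48. *Ckap2*, a microtubule-associated protein, was the lowest, with 26.0, 19.6 and 29.4 CPM against 27.9, 29.6 and 25.5 CPM (0.14, standard error 0.20). *Nusap1*, *Tpx2* and *Ckap2l* lay between, at 0.36, 0.35 and 0.33, with standard errors of 0.29 to 0.33.

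The 6 genes of chromosome condensation had log2 fold changes with a median of 0.38, and 1 of them, the condensin subunit *Ncapg*, did not overlap (0.35, standard error 0.20), against 6.41% of all genes. *Top2a*, topoisomerase II alpha, had 411, 231 and 305 CPM in *Tet2*+/+ and 521, 490 and 372 CPM in *Tet2*-/- blasts and the highest log2 fold change of the group, 0.55 (standard error 0.26). *Smc4*, a core ATPase of condensin, had 334, 197 and 272 CPM against 343, 392 and 278 CPM and the lowest, 0.33 (standard error 0.25). In both genes the *Tet2*-/- value of mouse 8 was below the *Tet2*+/+ value of mouse 19. The other core ATPase, *Smc2*, and the subunits *Ncapd2* and *Ncaph* had log2 fold changes of 0.46, 0.38 and 0.39.

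**Figure D2:**
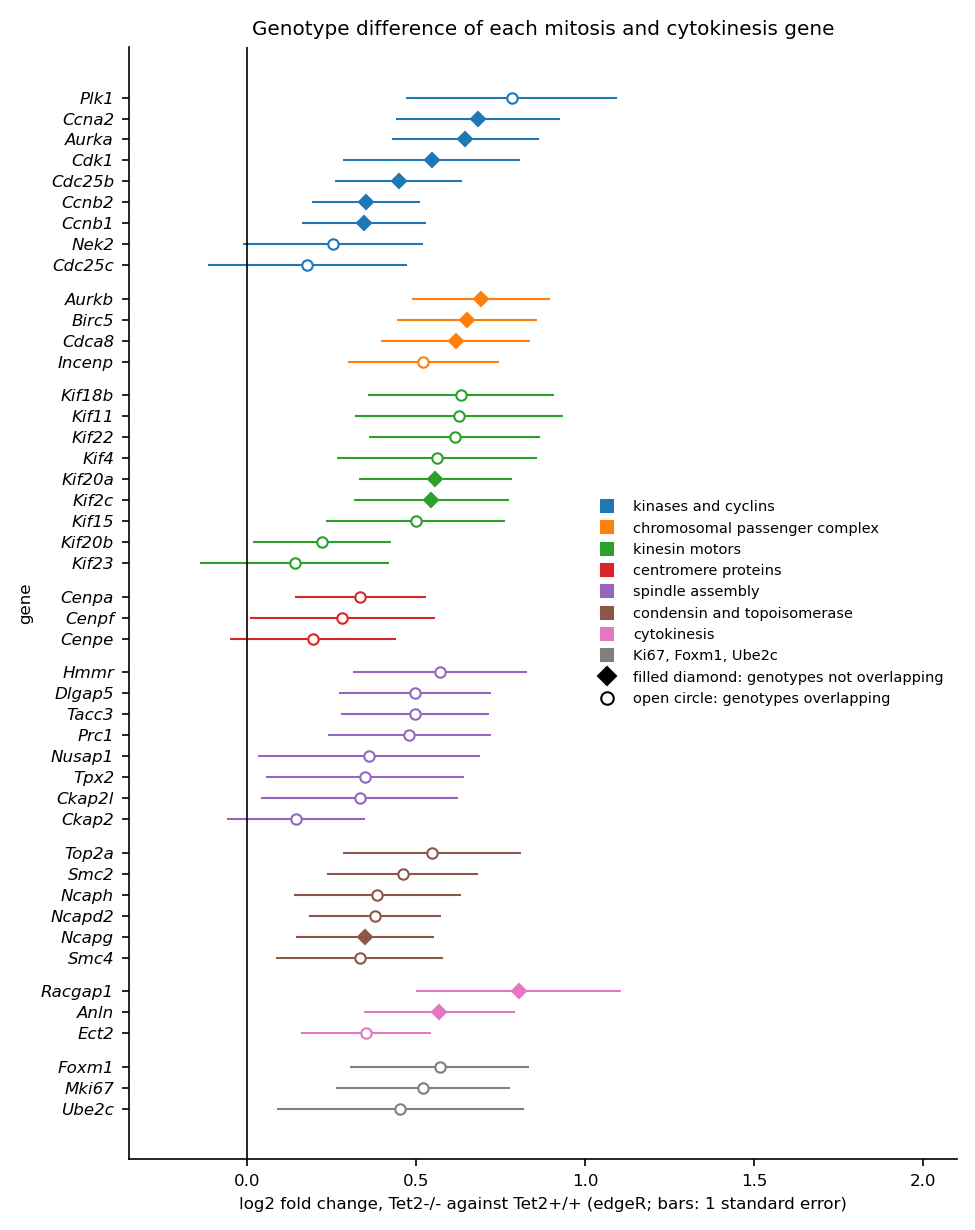
Log2 fold change of each gene, *Tet2*-/- against *Tet2*+/+ (edgeR), with bars of 1 standard error, coloured by role group. Filled diamonds mark the 14 genes whose genotypes did not overlap; the values run from 0.14 (*Kif23*) to 0.80 (*Racgap1*), all above 0.

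The lowest and the highest mouse were the same in most of the genes, while the other 4 changed places. Mouse 23 had the lowest level of the 6 mice in 43 of the 45 genes, and mouse 7 the highest in 37. Relative to each gene's median over the 6 mice, the median log2 deviation of the 45 genes was 0.02 in mouse 19, -0.69 in mouse 23, -0.20 in mouse 24, 0.21 in mouse 5, 0.39 in mouse 7 and -0.01 in mouse 8. Mice 19 and 8 therefore stood at about the same level in spite of their genotypes. Mouse 7 was above every *Tet2*+/+ mouse in 45 of the genes, mouse 5 in 33 and mouse 8 in 17. Of the *Tet2*+/+ mice, mouse 23 was below every *Tet2*-/- mouse in 44 genes, mouse 24 in 33 and mouse 19 in 14.

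The median was lower without mouse 23 or mouse 7 and rose most without mouse 19 or mouse 8. Without mouse 23, 42 of the 45 log2 fold changes were above 0, the median was 0.30, and 1 gene had an unadjusted edgeR p under 0.05, against 5.45% of all genes in that fit, in either direction. Without mouse 7, 44 were above 0, with a median of 0.37 and 2 genes at that p, against 9.68% of all genes. Both counts are below the share over all genes. The count was also below that share without mouse 24, 1 gene against 4.74% with a median of 0.52. The same held without mouse 5, 2 genes against 7.64% with a median of 0.51. In both of these fits all 45 were above 0. Without mice 23 and 7 together, chosen after their values were seen, 34 of the 45 were above 0 and the median was 0.20. Without mouse 19, by contrast, the median was 0.66 and 24 genes had an unadjusted p under 0.05, against 8.48% of all genes. Without mouse 8 the median was 0.59 and 17 genes had an unadjusted edgeR p under 0.05, against 9.23% of all genes. No gene of the 45 passed the adjusted threshold in any of these fits.

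**Figure D3:**
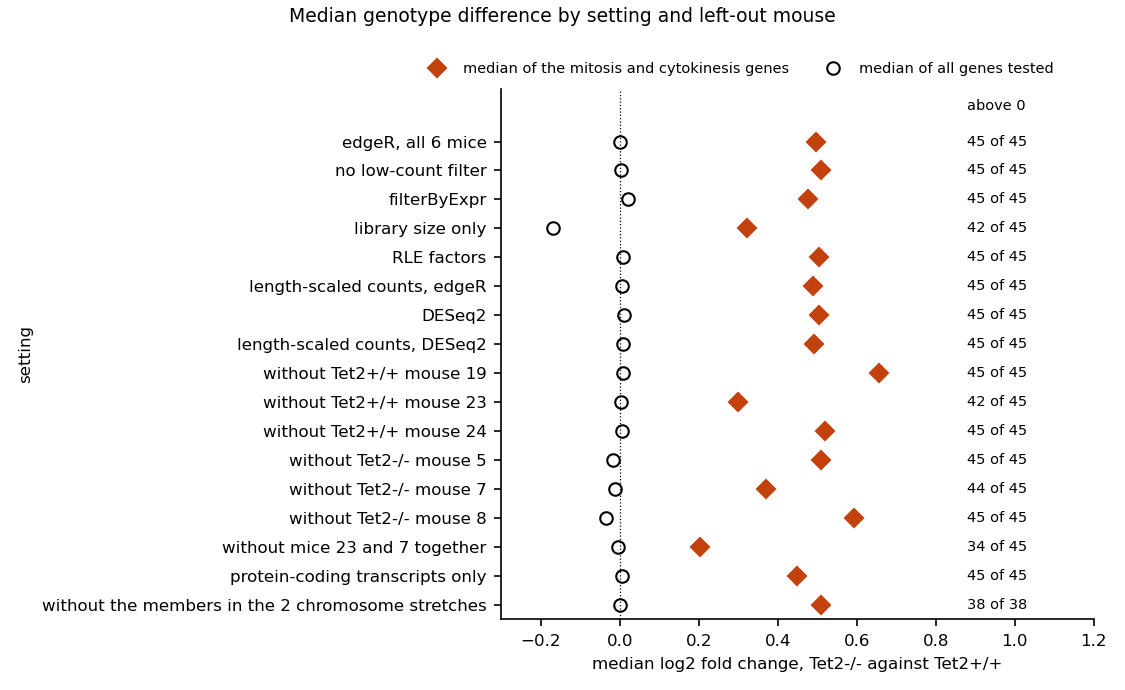
Median log2 fold change of the 45 genes (filled diamonds) and of all genes tested (open circles) under each setting, with the number of the genes above 0 at the right. The median is 0.50 with all 6 mice and lowest, 0.20, without mice 23 and 7 together; the row without the members in 2 chromosome stretches leaves out 7 genes of chromosomes 2 and 15.

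Markers of other myeloid stages differed between the same mice. The summed level of 10 markers of maturing and mature neutrophils, mostly granule genes, was 58704, 11655 and 42878 CPM in *Tet2*+/+ and 66123, 122121 and 25868 CPM in *Tet2*-/- blasts. All 10 were lowest in mouse 23 and highest in mouse 7, as most of the mitosis genes were. The summed level of the mitosis genes was 4611, 2783 and 3749 CPM against 5164, 5974 and 4454 CPM, and the order of the 6 mice was the same for both sums except that mice 8 and 24 changed places. The 9 markers of monocytes and macrophages summed to 2522, 3432 and 1726 CPM and to 4739, 2500 and 5635 CPM. *Ccr2*, the chemokine receptor of monocytes, had 151, 480 and 117 CPM against 318, 38.6 and 674 CPM, lowest in mouse 7. No marker of either list was at 0 in any mouse, 10 of 10 neutrophil and 7 of 9 monocyte markers had log2 fold changes above 0, and 0 of them passed the edgeR threshold, while *Ly6c2*, a monocyte surface antigen, passed with DESeq2. DESeq2 also passed 2 markers of basophils and mast cells, 2 of plasma cells and 1 each of stem and progenitor cells, of T and NK cells and of eosinophils, where *Gata2* is in both the stem cell and the basophil list. Among the other marker lists, 9 genes of stem and progenitor cells summed to 307, 436 and 367 CPM against 225, 153 and 195 CPM, and 8 genes of basophils and mast cells to 524, 437 and 439 CPM against 252, 376 and 181 CPM, so that both sums were lower in every *Tet2*-/- mouse. Single genes were less uniform in the second list, where 3 of the 6 tested had log2 fold changes below 0 and 3 above. In the stem and progenitor list 8 were below 0 and 1 above. The 14 markers of myeloid and granulocyte blasts summed to 19230, 13410 and 12487 CPM against 17500, 22787 and 16749 CPM, 12 of the 14 had log2 fold changes above 0, and the median was 0.51. Their median log2 deviation was -0.82 in mouse 23 and 0.45 in mouse 7. Of the erythroid markers, 10 of the 12 tested had log2 fold changes below 0, with a median of -1.94, and the whole list summed to 321, 101 and 111 CPM against 162, 126 and 124 CPM. The part of these cell types and stages in the difference of the mitosis genes was not tested.

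**Figure D4:**
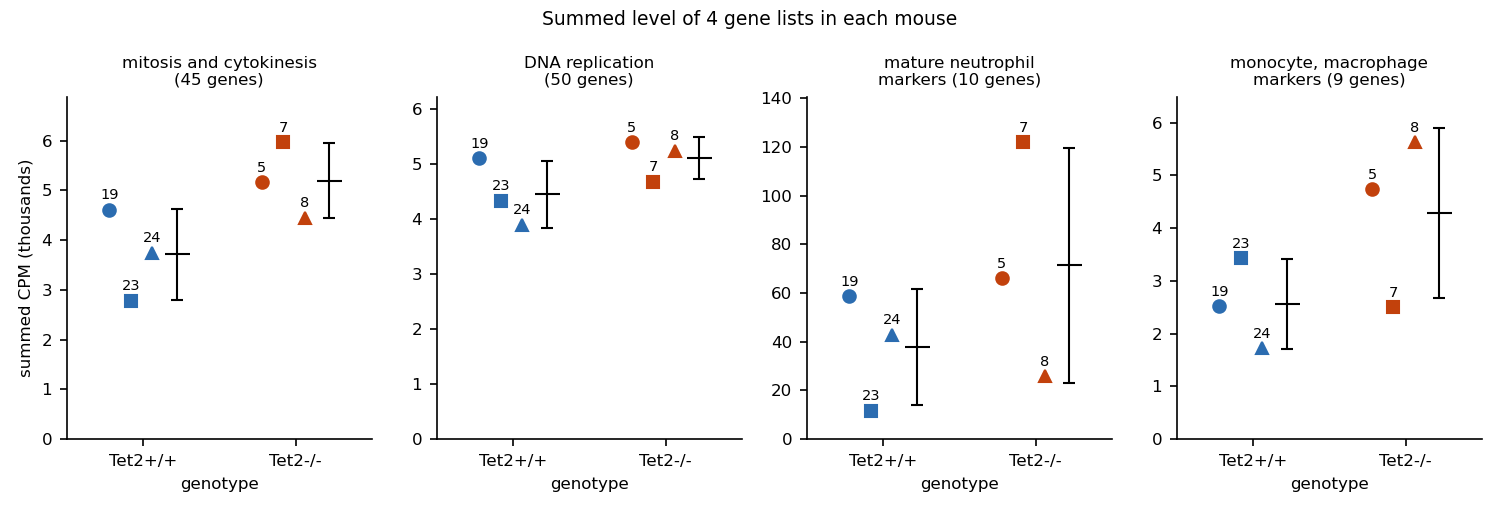
Summed CPM of 4 gene lists in each mouse, with the mean and SD of each genotype (n = 3) at the right. Mouse 23 is lowest and mouse 7 highest for the mitosis genes and for the neutrophil markers, whereas mouse 24 is lowest and mouse 5 highest for the DNA replication genes.

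Another 86 genes of mitosis, among them spindle checkpoint, kinetochore, cohesin and anaphase-promoting complex genes, had log2 fold changes with a median of 0.41, and 78 were above 0. With edgeR and with DESeq2 on summed counts, 0 passed the adjusted threshold. At an unadjusted p under 0.05, 19 were higher, against 3.0% of all genes tested, and 0 lower, against 5.12%, and 25 did not overlap, all with *Tet2*-/- higher, against 6.41%. The extremes were *Iqgap3*, a scaffold of the cytoskeleton and cytokinesis, with 61.0, 31.8 and 43.7 CPM against 96.6, 102 and 68.9 CPM (0.97, standard error 0.28), and *Pttg1*, securin, which restrains separase until anaphase, with 5.98, 11.1 and 9.93 CPM against 7.72, 4.57 and 8.95 CPM (-0.35, standard error 0.37). With DESeq2 on length-scaled counts, the design of the study's methods, 386 of all 22321 genes passed and 3 of the 86, which were *Espl1*, separase itself (adjusted p = 0.0294), *Cenpi*, a kinetochore protein (adjusted p = 0.0278), and *Mad1l1*, a spindle checkpoint protein (adjusted p = 3.2e-07), against edgeR adjusted p of 0.463, 0.679 and 0.668 on the summed counts. *Mad1l1* had 31.4, 27.9 and 26.3 CPM against 38.9, 34.3 and 33.8 CPM, and its TPM were 6.93, 6.90 and 5.14 against 16.4, 16.9 and 16.1, a wider gap on the scale that depends on which transcripts the counts were assigned to.

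DNA replication genes are transcribed earlier, at the entry to S phase. Of 50 such genes, 45 had log2 fold changes above 0 with a median of 0.17, 5 did not overlap and 3 were higher at an unadjusted edgeR p under 0.05, while 0 passed the adjusted threshold with edgeR or DESeq2. These counts stand near the shares over all genes, 6.41% and 3.0%. Whether this median differs from that of the mitosis genes was not tested. *Cdc45*, which encodes a subunit of the active replicative helicase, was the highest, with 67.7, 49.2 and 49.1 CPM against 112, 97.2 and 79.5 CPM (0.80, standard error 0.21), and *Gins1*, its partner in the helicase, the lowest at -0.10 (standard error 0.30). The order of the mice was also another one. The lowest of the 6 was mouse 24 in 31 of the 50 replication genes and mouse 23 in 7, and mouse 7, at the top for mitosis genes, was highest in 3. Per length, on the TPM scale, the 45 mitosis genes summed to 0.672, 0.489 and 0.728 of the replication genes in *Tet2*+/+ and to 0.734, 0.935 and 0.645 of them in *Tet2*-/- blasts. These ratios overlapped between the genotypes.

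Of 25 regulators of the mitotic programme, 19 had log2 fold changes above 0, with a median of 0.16. *E2f2*, an activator of S phase and mitotic genes, was the highest and the only one to pass with DESeq2. It had 173, 104 and 105 CPM in *Tet2*+/+ and 274, 381 and 235 CPM in *Tet2*-/- blasts, without overlap, a log2 difference of 1.22 (standard error 0.29), an edgeR adjusted p of 0.333 and a DESeq2 adjusted p of 0.0167. *Tfdp2*, an E2F dimerisation partner, was the lowest at -0.72 (standard error 0.32), with 24.9, 31.1 and 41.3 CPM against 28.4, 14.1 and 16.6 CPM.

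**Figure D5:**
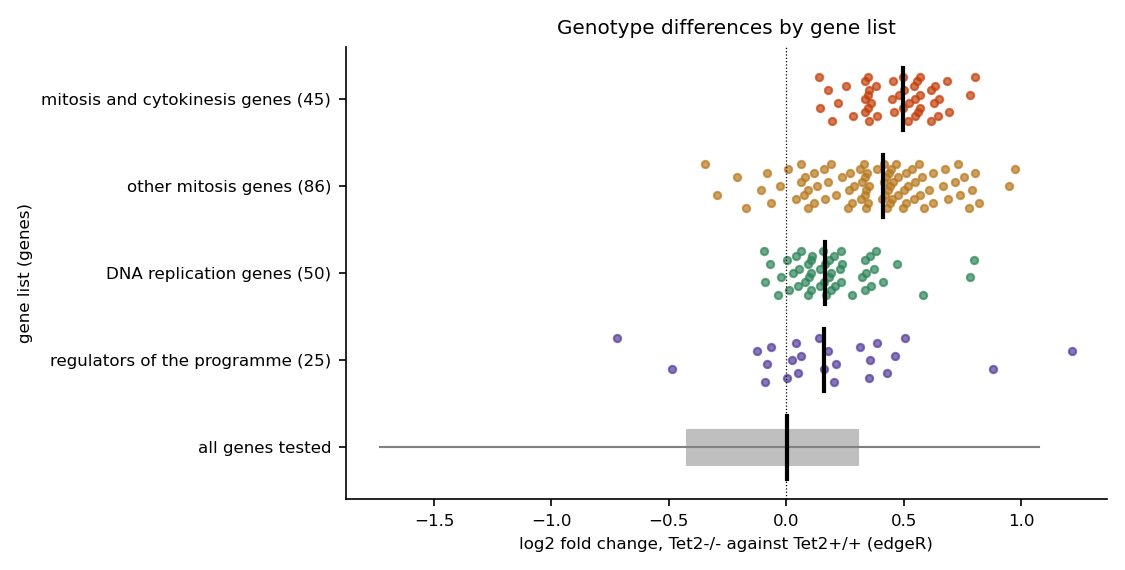
Log2 fold changes of single genes (points) in the 45 mitosis and cytokinesis genes and 3 other lists, with each list's median (black line). The lowest row gives all 22170 genes tested by their median, interquartile range (box) and 5th to 95th percentiles (line); 38 of the 45 genes lie above the box and 0 above the line.

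The size of the differences was moderate among the genes tested. The upper quartile of all log2 fold changes was 0.31 and the 95th percentile 1.08, and 38 of the 45 genes lay above the first and 0 above the second. The standard errors of the 45 ran from 0.16 to 0.37, with a median of 0.25.

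Some of the members lie on chromosome stretches whose genes were lower in 1 mouse as a whole, a pattern looked for after the values were seen. On chromosome 2 (GRCm38) between 60 and 170 Mb, the median log2 deviation of 453 other protein-coding genes at 5 CPM or more on average was -0.50 in mouse 5, against 0.06 for the 319 genes on the rest of the chromosome. The 6 members there, *Cdc25b*, *Tpx2*, *Nusap1*, *Ckap2l*, *Ncaph* and *Ube2c*, had a median deviation of -0.21 in mouse 5, and the 38 members outside both stretches 0.24. On chromosome 15 the median deviation of 400 genes was -0.46 in mouse 24, and the only member there, *Racgap1*, stood at -1.07 in mouse 24 and at -1.04 in mouse 23, where the chromosome as a whole stood at -0.07. Without these 7 members all 38 others had log2 fold changes above 0, with a median of 0.51. Of the 38, 10 had an unadjusted edgeR p under 0.05, against 8.11% of all genes in either direction. DNA copy number was not measured in these libraries, and its part was not tested.

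Between genes, levels can be compared on the TPM scale, which divides by transcript length. Summed over all transcripts of a gene, the mean TPM ran from 3.32 for *Cdc25c* to 119 for *Ncapd2*, with *Smc4* at 105 and *Cdk1* at 103 next. These 3 lead through short transcripts annotated as other than protein-coding, such as retained introns. The protein-coding transcripts held 17.8 to 23.4% of the TPM of *Ncapd2*, 20.8 to 30.3% of that of *Smc4* and 21.2 to 28.7% of that of *Cdk1*, but 65.2 to 71.9%, 38.6 to 53.7% and 62.9 to 71.4% of their estimated counts. On protein-coding TPM alone *Prc1* led with 41.6, followed by *Tacc3* with 40.7 and *Birc5* with 40.1, and *Ncapd2* was at place 13. In 28 of the 45 genes protein-coding transcripts held at least 90% of the counts in the median mouse, and in 2, *Cenpa* and *Smc4*, under 50%. With protein-coding transcripts only, all 45 log2 fold changes were again above 0, with a median of 0.45.

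The split of counts between transcripts of a gene was compared too. Among 96 transcripts of 40 members that took at least 5% of their gene's counts and at least 20 counts on average, the share did not overlap between the genotypes in 17, 17.7%, against 13.7% of 23656 such transcripts of all genes, so that the members were near the background. The widest of these, named after the values were seen, was in *Smc2*. Its transcript Smc2-202 took 61.0, 42.3 and 46.2% of the gene's counts in *Tet2*+/+ and 25.2, 17.4 and 22.9% in *Tet2*-/- blasts, while Smc2-201 took 39.0, 57.5 and 51.6% against 73.6, 79.5 and 74.4%. In the annotation both are protein-coding, start at the same base and differ in the length of the first exon, so only reads over the end of that exon tell them apart, and the uncertainty of the assignment was not measured here.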

How the data were processed

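RNA of sorted blasts from 6 mice was sequenced after poly(A) library preparation with a kit that does not keep the strand. The authors quantified transcripts with Salmon 0.12.0 in the bcbio pipeline on the mouse genome (mm10, GRCm38.p6 in the submitters' processing notes), and deposited for each transcript an estimated count, a TPM value, a length and an effective length. Here the deposited estimated counts were summed to the 53458 genes of GENCODE M21, rounded and tested in 22170 genes whose library-size-normalised counts summed to at least 10, with edgeR 4.0.16 (TMM, quasi-likelihood F test, 3 against 3 mice, no covariate, Benjamini-Hochberg, threshold 0.05) in R 4.3.3. The deposited TPM values were summed per gene for comparisons of levels between genes. Of 136288 transcripts, 112 matched no gene (0.0307 to 0.0416% of counts). DESeq2 1.42.0 was an alternative, also on length-scaled counts made from the deposited TPM and effective lengths. Log2 fold changes are *Tet2*-/- against *Tet2*+/+, and standard errors come from the F statistic. Scripts were tested on simulated data. Tables and figures were made with Python 3.11.15, pandas 2.3.3 and matplotlib 3.10.9. Alternatives covered the filter, the scaling, the counts, the tool and each mouse left out.

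The members, their role groups and the other lists were chosen with earlier results of these data known. Full values were given for *Mki67* and for the genes with the highest and lowest log2 fold change of each role group, genes of other lists were named only as extremes or past an adjusted p of 0.05, and the remaining members were named by group. Single genes were also tested with an exact two-sided permutation test, which cannot go below 0.1 with 3 against 3 mice. Nothing in the labels says more of the replicates than that they are separate mice. Without strand information, reads of genes that overlap on opposite strands cannot be told apart, as for *Kif20a* and *Cdc23*, *Ccna2* and *Exosc9*, and *Ncapg* and *Lcorl*. Some marker genes are not reported here.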

Additional observations from a re-analysis of the deposited data

How the results depend on the processing

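The 45 log2 fold changes were recomputed under 15 alternatives, 675 values in all, of which 0 passed the adjusted threshold and 18 changed sign. Scaling by library size alone moved the median of all genes to -0.17 and that of the 45 genes to 0.32, with 42 above 0. *Cdc25c* stood at -0.00067, *Kif23* at -0.051 and *Ckap2* at -0.031. There 5 genes had an unadjusted edgeR p under 0.05, against 12 in the main fit. The shares over all genes, in either direction, were 8.22% and 8.11%. With protein-coding transcripts only this count of genes was 6, against 7.44% of all genes. With mice 23 and 7 left out it was 1, against 9.33%, and the median of the 45 genes was 0.20. In that fit *Cdc25c* stood at -0.18, *Nek2* at -0.065, *Kif20b* at -0.042, *Kif23* at -0.32, *Cenpe* at -0.16, *Cenpf* at -0.14, *Tpx2* at -0.11, *Nusap1* at -0.17, *Ckap2* at -0.053, *Ckap2l* at -0.13 and *Ube2c* at -0.20. With single mice left out the median ran from 0.30 to 0.66 and the count from 1 to 24, against 4.74 to 9.68% of all genes. *Cdc25c* ran from -0.050 to 0.34, *Cenpe* from -0.031 to 0.31, *Ckap2* from -0.022 to 0.28 and *Kif23* from -0.21 to 0.31. Over all genes tested, edgeR called 10, 66 without the low-count filter, 5 on length-scaled counts, 1 on protein-coding transcripts, 0 without mice 23 and 7 and 0 to 7 with single mice left out, and DESeq2 called 385, or 386 on length-scaled counts. The causes of these differences were not tested. No paired analysis was possible because the genotypes share no mouse numbers. Over all genes tested the biological coefficient of variation was 43.6%. The labels give no batch, so none could be checked.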
